A study of Mus musculus with 24 samples.

Results

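The 41 mitotic genes described here code for the cyclins and kinases that start mitosis, the kinetochore and spindle proteins that move chromosomes, and the proteins that end division. They were taken by symbol, and all 41 were found among the 23361 gene rows of the deposited table. RNA had been sequenced from primary leukaemia cells taken from the spleens of mice with an acute myeloid leukaemia driven by NRASG12V, a constitutively active RAS protein, and by Mll-AF9, a fusion of the histone methyltransferase MLL with AF9. The mice were F1 animals of FVB/n and C57/BL/6J parents, and all groups share strain, genotype and organ. Sorting used 3 surface proteins: the myeloid integrin Mac-1, whose alpha chain Itgam encodes, the receptor tyrosine kinase Kit, and Sca-1, the product of Ly6a. There were 4 libraries of MacLowKit+Sca1+ cells and 5 each of MacLowKit+Sca1- cells, MacLowKit-Sca1- cells, MacHigh cells and unsorted cells, 24 in all. From here on the prefix MacLow is left out of those 3 names. No group of healthy cells and no treatment are among the samples, so comparisons of sorted groups are between cells of leukaemic spleens that differ in surface phenotype. The group names hold no marker of leukaemia, and the share of host spleen cells in the sorted groups was not tested. Unsorted cells were not selected by surface phenotype and also held RNA of red cell precursors, so comparisons with them are not between leukaemia cells alone. The labels give no age and do not state whether replicates are different mice, so the p-values speak only for the variation among the libraries, part of which may be technical.

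Mitosis begins when Cdk1, bound to a cyclin and freed of inhibitory phosphates by Cdc25, phosphorylates many proteins. Kinetochores built on the centromere then capture spindle microtubules, and the spindle checkpoint holds back the anaphase-promoting complex until every chromosome is attached. Most of these genes are transcribed late in the cell cycle, so in bulk RNA their level follows the share of cells that are in G2 and mitosis as well as the RNA per cell. In bulk samples fewer cells of a type and less RNA per cell cannot be told apart.

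Many genes of late cell cycle carry a pair of short promoter elements, the cell cycle genes homology region (CHR element, letters TTTGAA), which the DREAM and MuvB complexes bind, and the CCAAT box (letters CCAAT), which NF-Y binds. RefSeq promoter windows of GRCm38.p6, 250 bases before to 50 after the annotated start, were found for 34 of the 41 genes. On either strand, 23 of the 34 genes (67.6%) held the CHR letters and 25 (73.5%) the CCAAT letters, against 20.2% and 41.1% of the 27025 genes with a window. Both sets of letters stood in the same gene's windows for 20 of the 34 (58.8%), against 7.97% of all genes, and no CHR match overlapped a CCAAT match. Of the other mitotic genes listed for this study, 40 of 84 (47.6%) held the CHR letters and 53 of 84 (63.1%) the CCAAT letters. Birc5, Mad2l1, Melk, Nuf2, Nusap1 and Pttg1 held neither in these windows, which says only that these letters are not there. The stretches below run from 110 bases before the start to 30 bases from it onward and were picked after the values had been seen. Top2a, Ccnb2, Cdk1, Kif11, Cenpa, Cdc20 and Ube2c show how the elements are spaced in genes of different roles. Melk and Nusap1 show windows without them, in genes whose level went its own way among the sorted groups. Birc5, Mad2l1, Nuf2 and Pttg1, also without them, had their highest mean in Kit+Sca1- cells and their lowest in MacHigh cells. Most of the 41 genes did so too. Nek2, Cdc25b, Cenpf, Mki67, Ccnb2, Cenpa and Anln broke that order, although each held at least 1 of the motifs. Nek2 and Cdc25b held the CCAAT letters, Anln the CHR letters, and Cenpf, Mki67, Ccnb2 and Cenpa both. Ccna2 and Foxm1, for which no window was found, broke it too. Whether letters and level go together was not tested. Capitals mark CHR matches (TTTGAA, or TTCAAA on the other strand) and CCAAT matches (CCAAT, or ATTGG on the other strand), and each stretch is written 5′ to 3′ along the gene.
The stretch of Top2a lies at chr11:99024160-99024299 (minus strand), that of Ccnb2 at chr9:70421525-70421664 (minus), Cdk1 at chr10:69352883-69353022 (minus), Kif11 at chr19:37376272-37376411 (plus) and Cenpa at chr5:30666776-30666915 (plus). That of Cdc20 lies at chr4:118437314-118437453 (minus), Ube2c at chr2:164769819-164769958 (plus), Melk at chr4:44300807-44300946 (plus) and Nusap1 at chr2:119618188-119618327 (plus).
Top2a: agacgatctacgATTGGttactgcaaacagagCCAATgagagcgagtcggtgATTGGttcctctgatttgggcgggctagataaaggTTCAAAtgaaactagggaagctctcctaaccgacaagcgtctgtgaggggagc
Ccnb2: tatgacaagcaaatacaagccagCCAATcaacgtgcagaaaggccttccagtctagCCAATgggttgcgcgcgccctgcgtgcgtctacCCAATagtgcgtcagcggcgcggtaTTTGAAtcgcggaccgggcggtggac
Cdk1: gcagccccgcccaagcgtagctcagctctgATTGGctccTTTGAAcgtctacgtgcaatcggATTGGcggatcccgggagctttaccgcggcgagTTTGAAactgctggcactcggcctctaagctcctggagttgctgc
Kif11: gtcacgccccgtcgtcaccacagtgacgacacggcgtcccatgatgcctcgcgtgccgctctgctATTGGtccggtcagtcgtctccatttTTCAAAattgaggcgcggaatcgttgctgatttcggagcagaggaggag
Cenpa: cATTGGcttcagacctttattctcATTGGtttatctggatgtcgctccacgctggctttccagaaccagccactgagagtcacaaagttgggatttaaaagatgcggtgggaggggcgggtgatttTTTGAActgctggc
Cdc20: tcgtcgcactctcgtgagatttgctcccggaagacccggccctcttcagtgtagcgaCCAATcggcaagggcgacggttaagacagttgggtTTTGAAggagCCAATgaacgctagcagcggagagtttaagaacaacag
Ube2c: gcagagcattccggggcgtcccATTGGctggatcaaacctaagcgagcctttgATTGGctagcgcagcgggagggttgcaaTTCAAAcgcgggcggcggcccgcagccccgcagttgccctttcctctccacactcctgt
Melk: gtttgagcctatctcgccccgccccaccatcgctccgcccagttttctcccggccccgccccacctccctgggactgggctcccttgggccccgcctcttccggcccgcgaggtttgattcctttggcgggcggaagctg
Nusap1: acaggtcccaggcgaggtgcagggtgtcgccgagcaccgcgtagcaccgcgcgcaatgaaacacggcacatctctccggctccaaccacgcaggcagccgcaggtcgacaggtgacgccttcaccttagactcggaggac

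**Figure D1:**
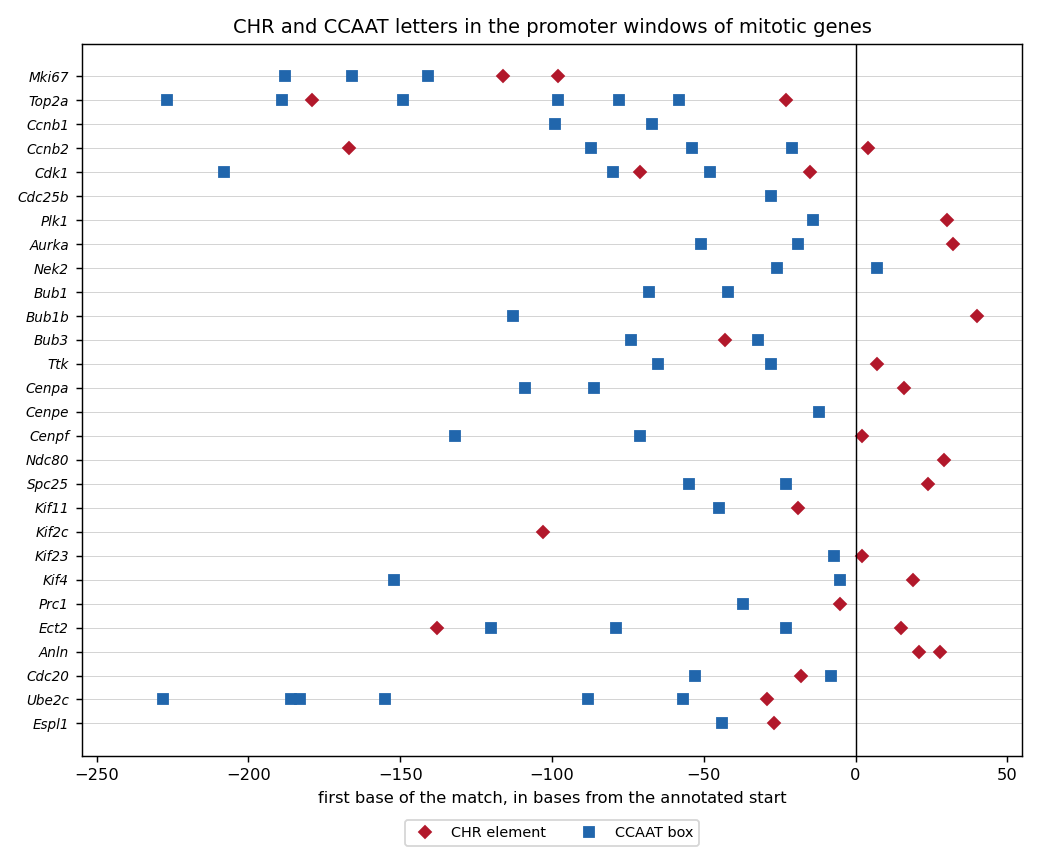
Positions of the CHR letters (red diamonds) and the CCAAT letters (blue squares) in the promoter windows of the mitotic genes that hold either, in bases from the annotated start at 0 (x axis), 1 gene per row. For Bub3, Ect2 and Prc1, which have a second window, only the window with the lower coordinate is drawn. In 20 genes both occur, and no CHR match overlaps a CCAAT match.

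Kit+Sca1- cells had the highest mean level of 38 of the 41 genes among the 5 groups. The exceptions were Nek2 and Melk, which were highest in Kit-Sca1- cells, and Cdc25b, which was highest in unsorted cells and, among the sorted groups, in MacHigh cells. MacHigh cells had the lowest mean of 31 genes, Kit+Sca1+ cells of 8 and Kit-Sca1- cells of Cenpf and Nusap1. How often each group is highest or lowest over all rows was not counted, so these ranks have no background beside them. Levels are in FPKM (fragments per kilobase of transcript, scaled to the mapped fragments of the library), which is per length, so that genes can be set side by side. The mean over the 24 libraries ran between 11.6 FPKM for Cdc25c and 155 FPKM for Top2a, all 41 genes passed the filter of 1 FPKM in at least 4 libraries, and no value stood at the table's stand-in for 0. Averaged over the 41 genes, log2(FPKM + 1) was 5.17 ± 0.151 in Kit+Sca1+ cells, 5.77 ± 0.179 in Kit+Sca1- cells, 5.42 ± 0.145 in Kit-Sca1- cells, 5.03 ± 0.353 in MacHigh cells and 5.47 ± 0.0537 in unsorted cells (SD over libraries).

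**Figure D2:**
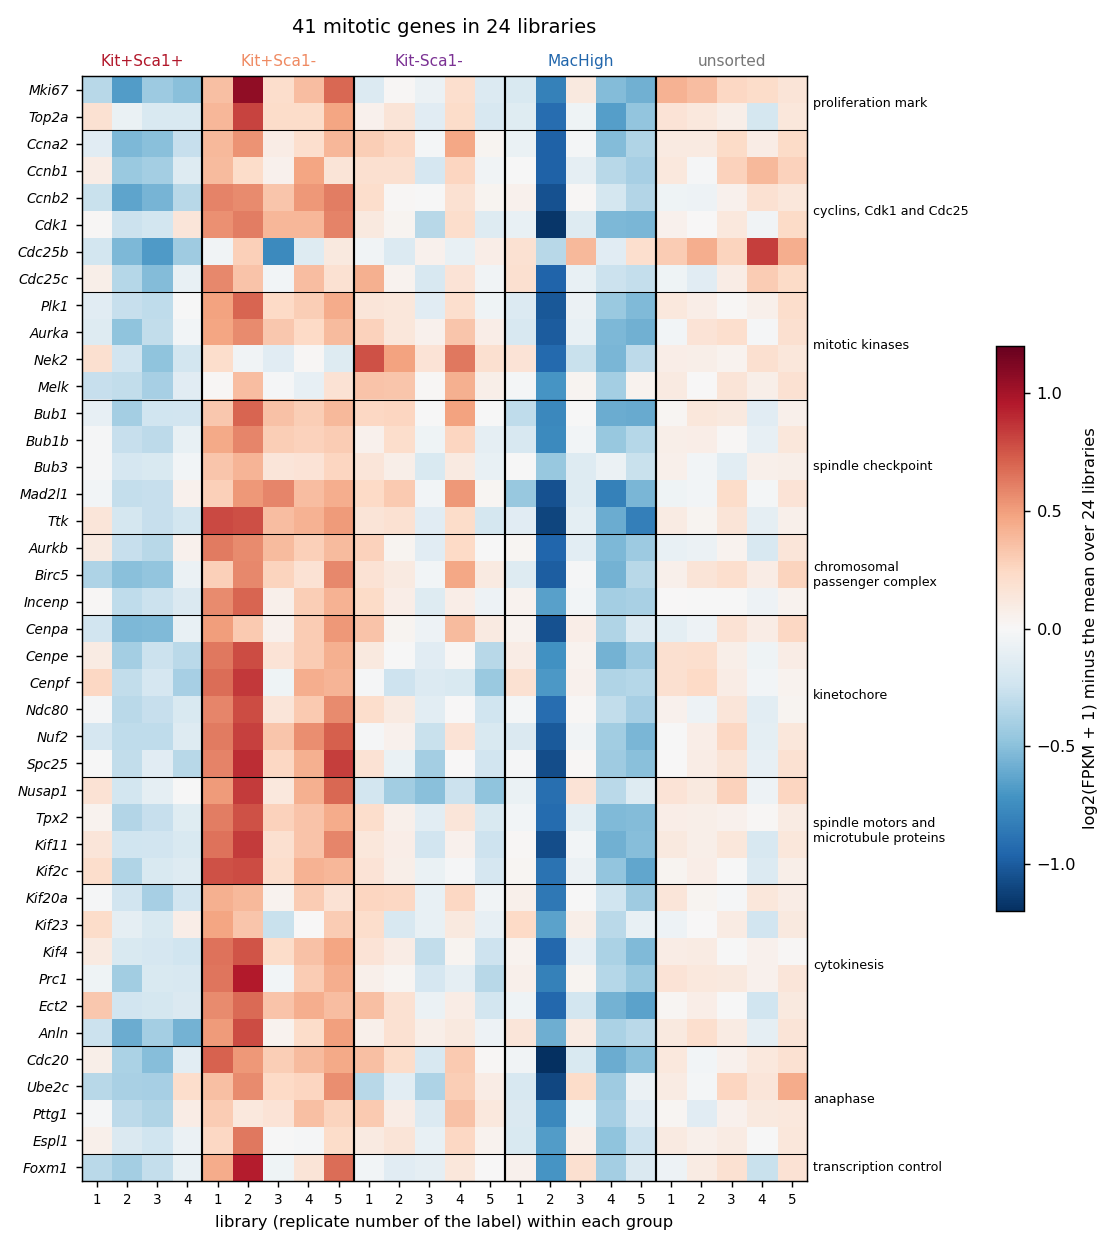
Level of each mitotic gene (rows, grouped by role) in each of the 24 libraries (columns, grouped by sorted population), as log2(FPKM + 1) minus the gene's mean over all libraries; red is above and blue below that mean. Kit+Sca1- libraries are mostly red, MacHigh replicate 2 is the bluest column, and Nek2, Melk and Cdc25b break the pattern.

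The sort genes followed the labels: Kit averaged 34.3, 39.8, 0.668 and 5.79 FPKM and Ly6a 7.67, 0.916, 1.02 and 2.35 FPKM in Kit+Sca1+, Kit+Sca1-, Kit-Sca1- and MacHigh cells, in that order. In the same order Itgam averaged 62.0, 267, 267 and 633 FPKM, so the MacLow groups were not alike in it. MacHigh replicate 2 stood apart, with the lowest value of its group for all 41 mitotic genes, so the counts of called genes that rest on MacHigh cells are also given without it for the 41 genes and the lists set beside them. Without it MacHigh cells had the lowest mean of 23 genes and Kit+Sca1+ cells of 16. Kit+Sca1- replicate 2 was the highest of its group for 29 genes, Kit+Sca1- replicate 3 the lowest for 30, and Kit+Sca1+ replicate 1 the highest for 30. The part of these libraries in the results was not tested beyond leaving each out. No column held another's values: in the most alike of the 276 pairs of libraries, 0.871% of the tested rows had the same value. Read numbers are not known, and FPKM sums ran between 445970 and 644381, lowest in Kit+Sca1- libraries (445970 to 544828). Sums are touched by rows listed at 0.001 in every library of a group while another group is high. These were 35 rows in Kit+Sca1- cells, Mpo among them, 2 rows in MacHigh cells, Lyz2 among them, and 1 row in unsorted cells. None of them were mitotic genes. Exons of 11 of the 41 genes overlap exons of a neighbour, nearly always on the opposite strand (31.8% of the exon bases of Kif20a at most, GENCODE vM21), and Ccnb1, Ccnb2 and Kif4 have a named pseudogene copy. The sources used here do not say whether strand was used in counting, so the levels of these genes are uncertain to that extent.

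Pairs of groups were compared with limma on log2(FPKM + 1) over all 11599 rows that passed the filter, and a gene was called where its Benjamini-Hochberg adjusted p was under 0.05, with no minimum fold. Each difference is the group named first minus the group named second, with its standard error. Among the 4 sorted groups the F test called 40 of the 41 mitotic genes, all but Kif23 (adjusted p 0.236), where it called 83.2% of all rows. That share is high enough that the count alone sets the mitotic genes little apart.

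**Figure D3:**
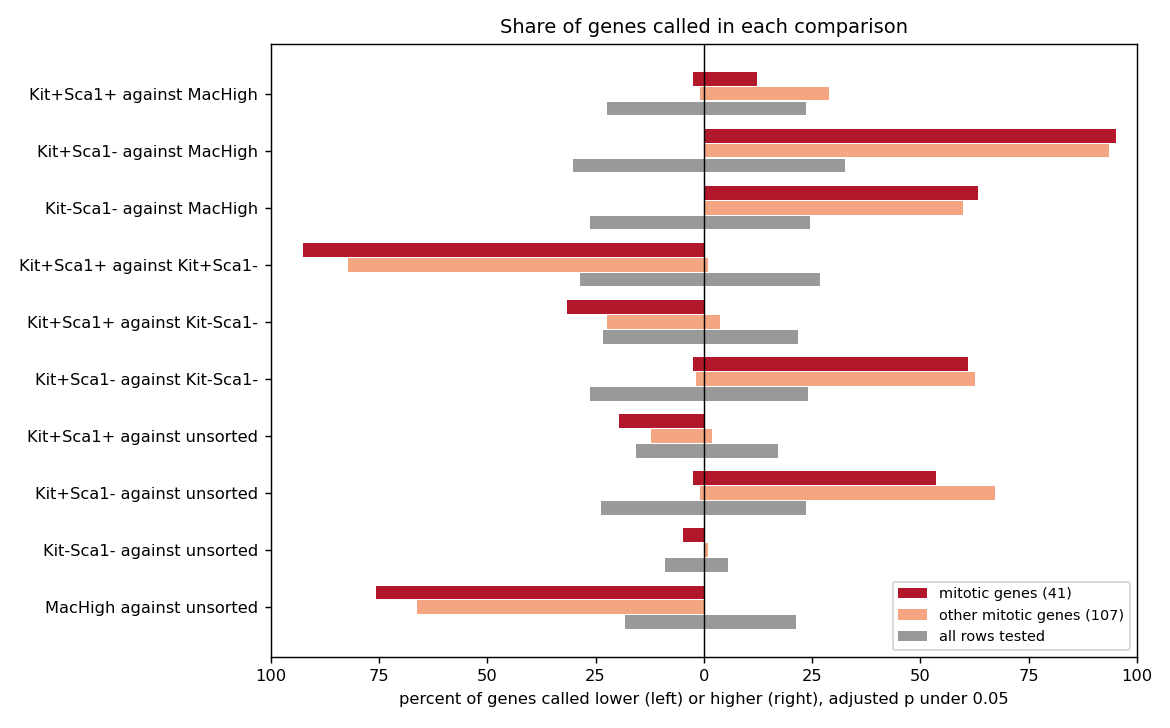
Share of the 41 mitotic genes (dark red), of 107 other mitotic genes (orange) and of all rows tested (grey) called higher (right of 0) or lower (left of 0) in each of the 10 comparisons, first group against second, in percent of each list. The mitotic genes lie almost wholly on the higher side for Kit+Sca1- against MacHigh and on the lower side for Kit+Sca1+ against Kit+Sca1-, whereas all rows split about evenly.

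Kit+Sca1- cells against MacHigh cells gave the widest difference by its median. Of the 41 genes limma called 39 higher and none lower (40 and 0 at an unadjusted p under 0.05), where 32.5% of all rows were called higher and 30.3% lower. The median log2 difference of the 41 genes was 0.78, against 0.03 over all rows. For 28 genes every Kit+Sca1- library lay above every MacHigh library, as it did for 21.9% of all rows, and without MacHigh replicate 2 the count was again 28, against 22.7% of all rows. The checkpoint protein Mad2l1 (Mad2), which sequesters Cdc20 until chromosomes are attached, had 57.2, 67.2, 70.4, 60.4 and 63.5 FPKM in Kit+Sca1- libraries, against 33.7, 22.1, 41.8, 26.2 and 31.5 in MacHigh libraries. The ranges do not touch. Its difference was 1.04 ± 0.13 (adjusted p 3.6e-07). Nuf2, a subunit of the Ndc80 complex that grips microtubules, had 55.2, 63.6, 45.1, 52.7 and 59.2 FPKM in Kit+Sca1- libraries, against 31.5, 17.2, 34.4, 26.4 and 23.9 in MacHigh libraries. Here too every Kit+Sca1- library was above every MacHigh library, and the difference was 1.05 ± 0.13 (adjusted p 4.39e-07). Ttk (Mps1), the kinase that starts the checkpoint signal at unattached kinetochores, had 29.8, 29.4, 21.98, 22.7 and 24.3 FPKM in Kit+Sca1- libraries, against 15.1, 7.29, 15.3, 10.7 and 9.05 in MacHigh libraries. Its difference of 1.13 ± 0.15 (adjusted p 1.03e-06) was the widest of the 41, again without overlap. The genes not called were Kif23 at 0.32 ± 0.15 (adjusted p 0.0614) and Cdc25b at -0.17 ± 0.16 (adjusted p 0.352). Between libraries of the same sample-name prefix (11, 26, L, N or R), the mean difference over the 41 genes ran between 0.17 in L and 1.5 in 26, the prefix of MacHigh replicate 2. Without MacHigh replicate 2, 37 genes were called and the median was 0.64. Of all calls in this comparison 51.7% were higher, and 71.8% after every library was scaled to the same FPKM sum, which put the median of all rows at 0.32 and that of the mitotic genes at 1.10.

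**Figure D4:**
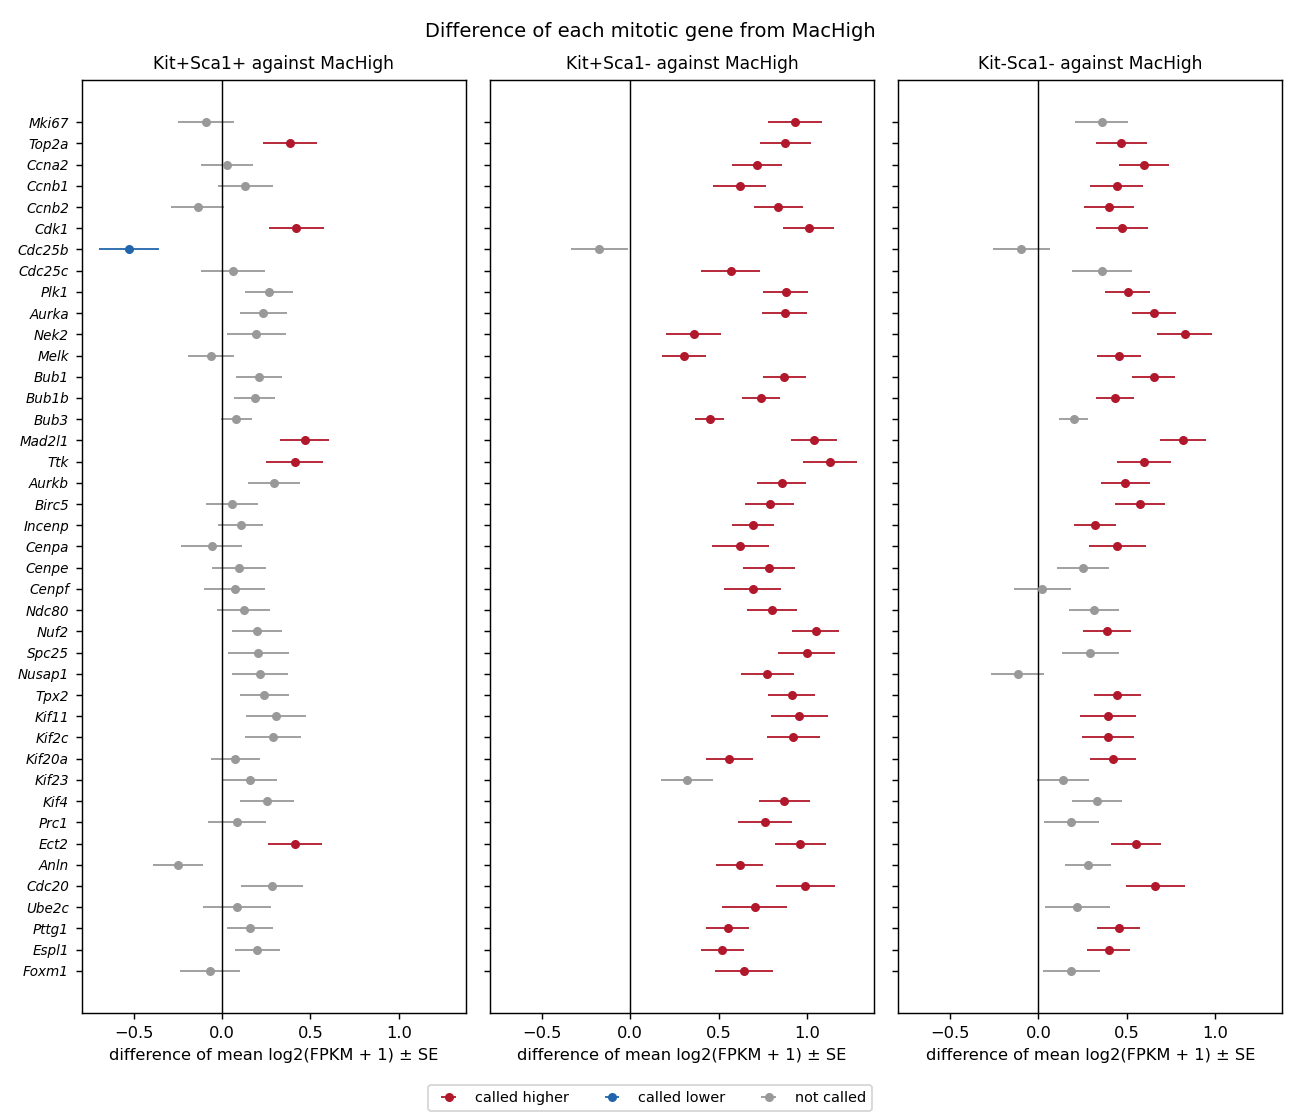
Difference of each mitotic gene from MacHigh cells as mean log2(FPKM + 1) ± SE from the fit of all 24 libraries, for Kit+Sca1+ (left), Kit+Sca1- (middle) and Kit-Sca1- cells (right); red is called higher, blue called lower and grey not called. In the middle panel 39 points are red, in the right panel 26 and in the left panel 5, with Cdc25b in blue.

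Kit+Sca1+ cells against Kit+Sca1- cells ask whether Sca-1 splits the Kit+ leukaemia cells. None of the 41 genes was called higher by limma and 38 were called lower (0 and 39 at an unadjusted p under 0.05), where 26.8% of all rows were called higher and 28.5% lower. The median was -0.62, against -0.02 over all rows. For 32 genes every Kit+Sca1+ library lay below every Kit+Sca1- library, against 19.4% of all rows. Ccnb2, a B-type cyclin that activates Cdk1, had 78.5, 60.9, 64.2 and 75.1 FPKM in Kit+Sca1+ libraries, against 144, 141, 119.8, 136 and 146 in Kit+Sca1- libraries. No library of either group came near the other group's range, and the difference was -0.98 ± 0.15 (adjusted p 8.35e-06). Mki67, which coats mitotic chromosomes and is widely stained to find dividing cells, had 95.9, 75.7, 89.4 and 85.6 FPKM in Kit+Sca1+ libraries, against 156, 254, 140.1, 157 and 196 in Kit+Sca1- libraries. The difference was -1.02 ± 0.16 (adjusted p 1.16e-05), with all Kit+Sca1+ libraries below all Kit+Sca1- libraries. Anln (anillin), which links actin, myosin and septins in the contractile ring, had 22.1, 17.3, 19.9 and 17.6 FPKM in Kit+Sca1+ libraries, against 38.5, 46.6, 27.5, 31.3 and 37.96 in Kit+Sca1- libraries. It too separated the groups fully, at -0.87 ± 0.14 (adjusted p 1.66e-05). Cdc25b at -0.35 ± 0.17 (adjusted p 0.0834), Kif23 at -0.17 ± 0.16 (adjusted p 0.387) and Nek2 at -0.16 ± 0.17 (adjusted p 0.422) were not called. In each of the prefixes shared by both groups (11, 26 and R), all 41 genes were lower in the Kit+Sca1+ library, by a mean of -0.50, -0.94 and -0.57. How many of all rows were lower within these prefixes was not counted. Of all calls 48.5% were higher, 32.2% with equal FPKM sums and 38.5% after quantile normalization, and the median of the mitotic genes was then -0.83 and -0.57, against -0.21 and -0.11 over all rows.

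Kit+Sca1- cells against Kit-Sca1- cells differ in Kit at equal Sca-1. Here 25 of the 41 genes were called higher and 1 lower, where 24% of all rows were called higher and 26.3% lower. The median was 0.37, against -0.02 over all rows. For 16 genes every Kit+Sca1- library lay above every Kit-Sca1- library, against 14.1% of all rows. Nusap1, which bundles spindle microtubules near chromosomes, had 56.5, 71.2, 42.9, 53.2 and 63.8 FPKM in Kit+Sca1- libraries, against 33.5, 29.2, 27.4, 32.8 and 27.9 in Kit-Sca1- libraries. The gap between the groups was clear, at 0.89 ± 0.15 (adjusted p 3.43e-05). Nuf2, with Kit+Sca1- values given above, had 35.1, 36.8, 29.4, 39.9 and 31.2 FPKM in Kit-Sca1- libraries. It differed by 0.66 ± 0.13 (adjusted p 0.000275). Spc25, another subunit of the Ndc80 complex, had 63.4, 77.5, 49.5, 56.4 and 74.9 FPKM in Kit+Sca1- libraries, against 46.9, 39.3, 31.1, 41.8 and 35.3 in Kit-Sca1- libraries. Its lowest Kit+Sca1- library was just above its highest Kit-Sca1- library, and the difference was 0.71 ± 0.16 (adjusted p 0.000952). The gene called lower was Nek2 at -0.47 ± 0.16 (adjusted p 0.0157), a call lost with equal FPKM sums (-0.25, adjusted p 0.255, the highest over its alternatives, which went down to 0.000968) and without Kit-Sca1- replicate 1. Pttg1 at 0.10 ± 0.12 (adjusted p 0.527) and Cdc25b at -0.08 ± 0.16 (adjusted p 0.714) had the smallest test statistics. Prefix L went its own way: its libraries differed by a mean of -0.04 over the 41 genes, with 21 higher and 20 lower, whereas prefixes 11, 26 and R differed by 0.31, 0.74 and 0.51. Differences within prefixes were not counted over all rows. Without Kit+Sca1- replicate 2 the count of called genes was 17, and with a block by sample-name prefix Cdc20 joined those called higher (adjusted p 0.0317). Of all calls 47.7% were higher, and 71.5% with equal FPKM sums.

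Kit-Sca1- cells against MacHigh cells set low against high Mac-1; the labels give no Kit or Sca-1 gate for MacHigh cells. Of the 41 genes limma called 26 higher and none lower (32 and 0 at an unadjusted p under 0.05), where 24.5% of all rows were called higher and 26.2% lower. The median was 0.40, against -0.02 over all rows. Mad2l1 had 55.3, 58.2, 45.5, 67.5 and 47.4 FPKM in Kit-Sca1- libraries and, as above, no MacHigh library reached the lowest of these. The difference was 0.82 ± 0.13 (adjusted p 2.53e-05). Bub1, the checkpoint kinase that recruits other checkpoint proteins to kinetochores, had 32.01, 32.3, 26.6, 37.8 and 26.7 FPKM in Kit-Sca1- libraries, against 21.5, 15.2, 26.6, 17.4 and 17.2 in MacHigh libraries. A single MacHigh library, at 26.6 FPKM, reached the lowest Kit-Sca1- libraries, and the difference was 0.65 ± 0.12 (adjusted p 0.000132). Nek2, a kinase that lets centrosomes part, had 39.6, 32.4, 25.9, 36.1 and 26.3 FPKM in Kit-Sca1- libraries, against 25.8, 11.5, 18.8, 15.3 and 18.3 in MacHigh libraries. All Kit-Sca1- libraries were above all MacHigh libraries, by a narrow margin at the edges, and the difference was 0.83 ± 0.16 (adjusted p 0.000149). Cdc25b at -0.10 ± 0.16 (adjusted p 0.641) and Cenpf at 0.02 ± 0.16 (adjusted p 0.923) differed least by the test statistic. Within the shared prefixes 11, 26, L and R the mean difference over the 41 genes was 0.20, 0.75, 0.21 and 0.29. Without MacHigh replicate 2, 19 genes were called and the median was 0.27. With a block by sample-name prefix Kif11 was no longer called (adjusted p 0.0581) and Cdc25c, Bub3 and Kif4 were (adjusted p 0.00687, 0.0348 and 0.0484), and of all calls 48.3% were higher, 58.5% with equal FPKM sums.

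Kit+Sca1+ cells against Kit-Sca1- cells gave a narrower difference. None of the 41 genes was called higher by limma and 13 were called lower (1 and 16 at an unadjusted p under 0.05), where 21.8% of all rows were called higher and 23.3% lower. A count of 13 in 41 is not far above that share, and what sets the 41 genes beside all rows is that none was called higher. The median was -0.21, against -0.03 over all rows. Melk, a kinase of the AMPK family whose RNA rises in dividing cells, had 12.5, 12.3, 11.3 and 13.8 FPKM in Kit+Sca1+ libraries, against 19.7, 19.5, 15.5, 20.9 and 16.1 in Kit-Sca1- libraries. The highest Kit+Sca1+ library was below the lowest Kit-Sca1- library, and the difference was -0.52 ± 0.13 (adjusted p 0.00296). Ccna2, the A-type cyclin of S and G2 phase, also separated the groups, at -0.57 ± 0.15 (adjusted p 0.00329). Nek2 had 26.4, 19.3, 16.2 and 19.5 FPKM in Kit+Sca1+ libraries and, with 1 Kit+Sca1+ library at the foot of the Kit-Sca1- range, differed by -0.63 ± 0.17 (adjusted p 0.00345). Besides these, Anln, Ccnb2, Birc5, Bub1, Aurka, Cenpa, Mki67, Cdc25b, Mad2l1 and Kif20a were called lower. Cenpf at 0.05 ± 0.17 and Kif23 at 0.02 ± 0.16 (adjusted p 0.838 and 0.945) differed least. Within the shared prefixes 11, 12, 26 and R the mean difference over the 41 genes was -0.19, -0.42, -0.20 and -0.06. Without Kit+Sca1+ replicate 2 the count was 7, and without Kit-Sca1- replicate 4 it was 8. With a block by sample-name prefix Ccnb1, Cdc25c, Cdc20 and Pttg1 joined those called lower (adjusted p 0.0443, 0.0494, 0.0286 and 0.0132).

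Kit+Sca1+ cells against MacHigh cells showed the least difference among the sorted groups by the median. Of the 41 genes 5 were called higher and 1 lower, where 23.6% of all rows were called higher and 22.4% lower. That count, 6 of 41, is not above the share of all rows. The median was 0.16, against 0.03 over all rows. Mad2l1 had 45.5, 38.1, 38.4 and 48.5 FPKM in Kit+Sca1+ libraries, of which the lowest overlapped with the highest MacHigh library given above, and differed by 0.47 ± 0.14 (adjusted p 0.00833). The other genes called higher were Cdk1 (0.42 ± 0.16, adjusted p 0.0313), Ect2 (0.41 ± 0.15, adjusted p 0.0317), Ttk (0.41 ± 0.16, adjusted p 0.0415) and Top2a (0.39 ± 0.15, adjusted p 0.0432). Cdc25b was the gene called lower, at -0.53 ± 0.17 (adjusted p 0.0142). Ccna2 at 0.03 ± 0.15 (adjusted p 0.89) and Cenpa at -0.06 ± 0.17 (adjusted p 0.808) differed least. Within the shared prefixes 11, 26 and R the mean difference over the 41 genes was 0.01, 0.56 and 0.23. The 3 comparisons with MacHigh cells share its libraries. The direction rests on the MacHigh libraries: without MacHigh replicate 2, 1 gene (Mad2l1) was called higher and 3 (Cdc25b, Ccnb2 and Anln) lower, and Mad2l1 was the gene called under every alternative. The count was 2 without MacHigh replicate 4, without MacHigh replicate 5 or without Kit+Sca1+ replicate 1, and 10 without MacHigh replicate 1, and of all calls 51.3% were higher, 62.8% with equal FPKM sums, under which, as without Kit+Sca1+ replicate 3, Cdc25b was not called.

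Counts by role are to be read beside the whole list. Of the 41 genes 39 were called higher in Kit+Sca1- than in MacHigh cells, where 32.5% of all rows were. In Kit+Sca1+ against Kit+Sca1- cells 38 were called lower, where 28.5% of all rows were. Whether roles differed from each other was not tested. By role, the marks of proliferation are Top2a and Mki67, and Top2a had the highest level of the 41 genes. Top2a, which untangles DNA so that sister chromosomes can part, had 171, 143, 132 and 132 FPKM in Kit+Sca1+ libraries, 199, 265, 175, 176 and 209.6 in Kit+Sca1- libraries, 155, 167, 137, 175 and 131 in Kit-Sca1- libraries, 136, 79.3, 145, 94.6 and 108 in MacHigh libraries and 168, 164, 158, 129.7 and 165 in unsorted libraries. All Kit+Sca1- libraries were above all Kit+Sca1+, MacHigh and unsorted libraries, whereas Kit-Sca1- and Kit+Sca1- libraries overlapped. The order of its sorted means was Kit+Sca1-, Kit-Sca1-, Kit+Sca1+ and MacHigh, and the neighbours Kit-Sca1- and Kit+Sca1+ overlapped and did not differ by the test (-0.08 ± 0.15 for Kit+Sca1+ against Kit-Sca1-, adjusted p 0.686). Mki67 placed Kit+Sca1+ cells last: its means were 86.7 ± 8.45 FPKM in Kit+Sca1+ cells and 94.4 ± 24.8 FPKM in MacHigh cells, which overlapped.

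**Figure D5:**
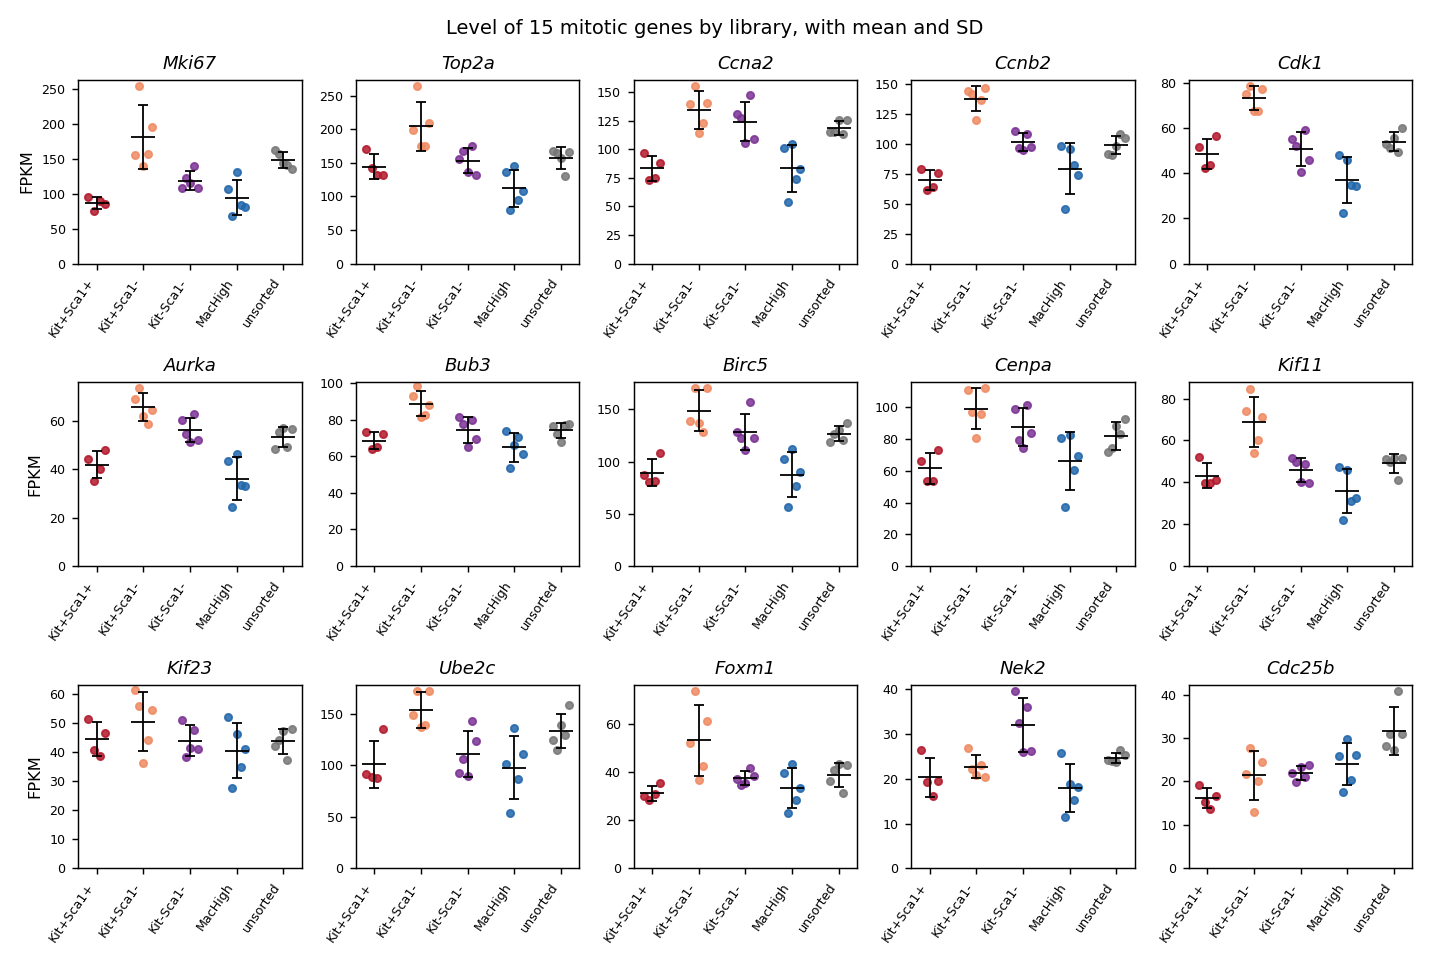
FPKM (y axis, linear and starting at 0, a scale of its own in each panel) of 15 mitotic genes in each library (points), by group (x axis), with the group's mean and SD (bars). Kit+Sca1- points are highest in most panels, Nek2 is highest in Kit-Sca1- cells, Cdc25b in unsorted cells, and the Kif23 groups overlap.

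Of the 6 cyclins, Cdk1 and Cdc25 phosphatases, 5 were called higher in Kit+Sca1- than in MacHigh cells, where 32.5% of all rows were. In Kit+Sca1+ against Kit+Sca1- cells 5 were called lower, where 28.5% of all rows were. Cdc25b was the gene not called in either. Ccna2 had 96.9, 73.2, 75.3 and 87.9 FPKM in Kit+Sca1+ libraries, 140.1, 156, 114, 123 and 141 in Kit+Sca1- libraries, 131, 127, 105, 148 and 109 in Kit-Sca1- libraries, 101, 53.9, 105, 73.9 and 83.1 in MacHigh libraries and 115, 115, 125, 113 and 126 in unsorted libraries. Kit+Sca1+ libraries were all below Kit+Sca1-, Kit-Sca1- and unsorted libraries and overlapped with MacHigh libraries. Cdk1, the kinase that drives mitosis, had 51.7, 42.6, 43.7 and 56.6 FPKM in Kit+Sca1+ libraries, 75.01, 78.7, 67.8, 67.5 and 77.4 in Kit+Sca1- libraries, 55.4, 52.2, 40.5, 59.3 and 45.9 in Kit-Sca1- libraries and 48.1, 22.2, 45.7, 34.9 and 34.5 in MacHigh libraries. Its Kit+Sca1- libraries were above those of every other sorted group, and Kit+Sca1+ and Kit-Sca1- libraries overlapped, at -0.05 ± 0.16 (adjusted p 0.806). Ccnb1, the cyclin whose destruction ends mitosis, averaged 21.5 ± 2.67 FPKM in Kit+Sca1- cells and 13.9 ± 3.52 FPKM in MacHigh cells, a difference of 0.62 ± 0.15 (adjusted p 0.000921). Ccnb2 differed by 0.84 ± 0.14 (adjusted p 1.92e-05) between the same groups. Cdc25c, a phosphatase that activates Cdk1 in a loop with it, was called higher in that comparison (0.57 ± 0.17, adjusted p 0.00588) and lower in Kit+Sca1+ against Kit+Sca1- cells (-0.51 ± 0.18, adjusted p 0.0207). Cdc25b, the phosphatase that acts on Cdk1 earlier, at the centrosome, ran differently, with 19.3, 15.2, 13.7 and 16.6 FPKM in Kit+Sca1+ libraries, 21.8, 27.7, 12.9, 20.1 and 24.5 in Kit+Sca1- libraries, 21.9, 19.9, 23.4, 21.1 and 23.9 in Kit-Sca1- libraries, 25.8, 17.7, 29.8, 20.4 and 26.1 in MacHigh libraries and 28.1, 30.8, 27.3, 40.9 and 30.9 in unsorted libraries. Kit+Sca1+ libraries were all below Kit-Sca1- and unsorted libraries, and no pair of groups among Kit+Sca1-, Kit-Sca1- and MacHigh was called for it.

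Among the mitotic kinases, Aurka and Plk1 followed the general order and Nek2 and Melk did not. Aurka, which matures centrosomes and builds spindle poles, had 44.3, 35.04, 39.96 and 48.1 FPKM in Kit+Sca1+ libraries, 69.1, 73.5, 61.9, 58.7 and 64.5 in Kit+Sca1- libraries, 60.1, 54.4, 51.3, 62.6 and 52.1 in Kit-Sca1- libraries, 43.2, 24.2, 46.4, 33.6 and 32.9 in MacHigh libraries and 48.3, 55.4, 56.8, 48.99 and 56.5 in unsorted libraries. Kit+Sca1- and Kit-Sca1- libraries overlapped with each other, and all of them were above all Kit+Sca1+ and MacHigh libraries. Plk1, which acts from centrosome to cleavage furrow, averaged 39.5 ± 3.91 FPKM in Kit+Sca1+ cells, 61.2 ± 7.97 FPKM in Kit+Sca1- cells, 46.8 ± 4.69 FPKM in Kit-Sca1- cells and 33.5 ± 8.31 FPKM in MacHigh cells. Nek2 averaged 22.7 ± 2.53 FPKM in Kit+Sca1- cells against 32.05 ± 6.02 FPKM in Kit-Sca1- cells, and Melk 16.5 ± 2.30 FPKM against 18.3 ± 2.41 FPKM. Of these, Nek2 was called, though not under the alternatives named above, and Melk was not (-0.15 ± 0.12, adjusted p 0.342). Nek2 shares 9.23% of its annotated exon bases with a gene on the opposite strand, and nothing in the sources used here says that strand was used in counting.

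All 5 spindle checkpoint genes were called higher in Kit+Sca1- than in MacHigh cells, as were 32.5% of all rows. All 5 were also called lower in Kit+Sca1+ than in Kit+Sca1- cells, as were 28.5% of all rows. Bub3, the WD-repeat protein that carries Bub1 and BubR1 to kinetochores and the most abundant of them, had 73.2, 64.1, 64.9 and 71.96 FPKM in Kit+Sca1+ libraries, 93.3, 98.3, 81.7, 82.8 and 88.2 in Kit+Sca1- libraries, 81.6, 77.4, 65.03, 79.7 and 69.3 in Kit-Sca1- libraries, 73.6, 53.5, 66.1, 70.5 and 61.4 in MacHigh libraries and 76.8, 72.2, 67.7, 76.97 and 77.5 in unsorted libraries. Kit+Sca1- libraries were above all others, but by a small step: 0.45 ± 0.08 against MacHigh (adjusted p 6.46e-05), the smallest of the 5. Bub1b (BubR1) differed by 0.74 ± 0.11 and Bub1 by 0.87 ± 0.12 in the same comparison (adjusted p 3.26e-06 and 1.71e-06). Kit+Sca1- against Kit-Sca1- cells called Ttk, Bub3 and Bub1b higher, where 24% of all rows were, and left out Mad2l1 (0.23 ± 0.13, adjusted p 0.16) and Bub1 (0.22 ± 0.12, adjusted p 0.145).

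The chromosomal passenger complex corrects wrong attachments and then moves to the midzone. Birc5 (survivin), the subunit that finds the centromere, had 87.5, 79.97, 81.4 and 108 FPKM in Kit+Sca1+ libraries, 138, 170.2, 137, 129 and 170.0 in Kit+Sca1- libraries, 128, 123, 111, 157 and 122 in Kit-Sca1- libraries, 102, 56.8, 112, 76.3 and 89.7 in MacHigh libraries and 119, 126, 131, 120.5 and 136 in unsorted libraries. All Kit+Sca1+ libraries were below all Kit+Sca1-, Kit-Sca1- and unsorted libraries. Aurkb, its kinase, differed by -0.56 ± 0.15 and Incenp, its scaffold, by -0.59 ± 0.13 in Kit+Sca1+ against Kit+Sca1- cells (adjusted p 0.00258 and 0.000427). In Kit+Sca1+ against Kit-Sca1- cells Birc5 was called (-0.52 ± 0.15, adjusted p 0.00681), whereas Aurkb (-0.20 ± 0.15, adjusted p 0.298) and Incenp (-0.21 ± 0.13, adjusted p 0.178) were not. Whether Birc5 differed from its partners was not tested.

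All 6 kinetochore genes were called higher in Kit+Sca1- than in MacHigh cells and lower in Kit+Sca1+ than in Kit+Sca1- cells. Over all rows these shares were 32.5% and 28.5%. Cenpa, the histone variant that marks the centromere, had 66.4, 53.4, 53.8 and 73.1 FPKM in Kit+Sca1+ libraries, 111, 96.95, 80.5, 96.1 and 112 in Kit+Sca1- libraries, 99.2, 79.5, 74.4, 101 and 83.9 in Kit-Sca1- libraries, 80.4, 37.3, 82.5, 60.4 and 69.6 in MacHigh libraries and 71.6, 74.4, 88.1, 83.02 and 92.6 in unsorted libraries. Kit+Sca1+ libraries were below all Kit+Sca1- and Kit-Sca1- libraries, and MacHigh libraries overlapped with every other group. Ndc80, the microtubule-binding subunit that names its complex, averaged 36.6 ± 6.42 FPKM in Kit+Sca1- cells against 20.8 ± 5.15 FPKM in MacHigh cells. Together with Nuf2 and Spc25 it was also called higher in Kit+Sca1- than in Kit-Sca1- cells, at 0.49 ± 0.14 (adjusted p 0.00654), where 24% of all rows were. Cenpe, the motor that carries chromosomes to the spindle equator, and Cenpf, a large kinetochore protein of G2 and mitosis, differed there by 0.53 ± 0.15 and 0.67 ± 0.16 (adjusted p 0.0041 and 0.00139), and Cenpa by 0.18 ± 0.16 (adjusted p 0.386), not called.

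Spindle motors and microtubule proteins held 4 members, all called higher in Kit+Sca1- cells against MacHigh and against Kit-Sca1- cells. Over all rows 32.5% and 24% were called higher there. Kif11, the motor that pushes spindle poles apart, had 52.1, 39.6, 39.9 and 41.3 FPKM in Kit+Sca1+ libraries, 74.3, 84.7, 53.9, 59.9 and 71.2 in Kit+Sca1- libraries, 51.7, 49.7, 40.1, 48.8 and 39.4 in Kit-Sca1- libraries, 47.4, 22.02, 45.99, 31.2 and 32.6 in MacHigh libraries and 51.1, 49.5, 51.8, 41.03 and 51.7 in unsorted libraries. Every Kit+Sca1- library was above every library of the other groups. Tpx2, which activates Aurka on the spindle, and Kif2c, which takes microtubules apart at their ends, differed by 0.91 ± 0.13 and 0.92 ± 0.15 from MacHigh cells (adjusted p 2.56e-06 and 1.02e-05). Nusap1 had 44.4, 33.5, 36.5 and 39.1 FPKM in Kit+Sca1+ libraries. All of them were above the Kit-Sca1- libraries given above, though the difference of 0.34 ± 0.16 was not called (adjusted p 0.0902).

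Of the 6 genes of cytokinesis 5 were called higher in Kit+Sca1- than in MacHigh cells, where 32.5% of all rows were. Kif23, the motor subunit of centralspindlin, had 51.5, 40.9, 38.6 and 46.6 FPKM in Kit+Sca1+ libraries, 61.5, 55.7, 36.3, 44.2 and 54.5 in Kit+Sca1- libraries, 51.03, 38.3, 41.3, 47.7 and 41.1 in Kit-Sca1- libraries, 51.9, 27.8, 46.3, 34.8 and 41.2 in MacHigh libraries and 42.1, 44.2, 47.1, 37.3 and 47.9 in unsorted libraries. Its ranges overlapped in every pair of groups, and none of the 10 comparisons called it. Ect2, which switches on RhoA at the cleavage site, Prc1, which bundles midzone microtubules, and Kif4, which works with Prc1, differed by 0.96 ± 0.14, 0.76 ± 0.15 and 0.87 ± 0.14 (adjusted p 4.25e-06, 0.000177 and 1.41e-05). Kif20a, which brings the passenger complex to the midzone, differed by 0.56 ± 0.13 (adjusted p 0.000721), and 31.8% of its exon bases lie over exons of Cdc23 on the other strand. Prc1 shares 21.8% of its exon bases and Kif4 15.1% with a neighbour in the same way.

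The genes of anaphase are 2 that work with the anaphase-promoting complex, Cdc20 and Ube2c, and the protease separase (Espl1) with its inhibitor securin (Pttg1), which that complex marks for destruction. Ube2c, the enzyme that starts ubiquitin chains on its substrates, had 92.1, 88.7, 88.2 and 135 FPKM in Kit+Sca1+ libraries, 149, 172, 137, 139 and 172 in Kit+Sca1- libraries, 92.4, 106, 89.6, 143 and 124 in Kit-Sca1- libraries, 102, 54.2, 136, 86.5 and 111 in MacHigh libraries and 125, 115, 139, 129 and 158 in unsorted libraries. Kit+Sca1- libraries were above all Kit+Sca1+ and MacHigh libraries by a narrow margin and overlapped with the others, and 22.8% of the exon bases of Ube2c are shared with Tnnc2 on the opposite strand. Cdc20, the activator that the checkpoint restrains, averaged 52.7 ± 9.73 FPKM in Kit+Sca1+ cells, 86.1 ± 9.75 FPKM in Kit+Sca1- cells, 68.6 ± 10.6 FPKM in Kit-Sca1- cells and 44.5 ± 13.6 FPKM in MacHigh cells. Pttg1, which holds separase inactive, and Espl1, which cuts cohesin, differed by 0.55 ± 0.12 and 0.52 ± 0.12 between Kit+Sca1- and MacHigh cells (adjusted p 0.000411 and 0.000681). In Kit+Sca1+ against Kit+Sca1- cells all 4 were called lower, where 28.5% of all rows were, Espl1 least at -0.32 ± 0.13 (adjusted p 0.0374).

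Foxm1 is the transcription factor that, with B-Myb and MuvB, switches on many of these genes in G2. It had 30.2, 28.4, 30.9 and 35.7 FPKM in Kit+Sca1+ libraries, 52.1, 73.8, 36.8, 42.4 and 61.1 in Kit+Sca1- libraries, 37.2, 34.6, 35.3, 41.9 and 38.2 in Kit-Sca1- libraries, 39.5, 22.9, 43.5, 28.3 and 33.6 in MacHigh libraries and 36.5, 40.8, 43.2, 31.4 and 42.9 in unsorted libraries. Kit+Sca1+ libraries were all below Kit+Sca1- libraries (-0.71 ± 0.17, adjusted p 0.00127). Kit+Sca1- and MacHigh libraries overlapped, although the difference was called (0.64 ± 0.16, adjusted p 0.00151), and Kit-Sca1- cells did not differ from MacHigh cells by the test (0.19 ± 0.16, adjusted p 0.355).

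Some calls named by role were lost under at least 1 alternative (a setting or a left-out library). In Kit+Sca1- against MacHigh cells these were Melk and Nek2, and in Kit+Sca1+ against Kit+Sca1- cells Cdc25c, Espl1, Melk and Pttg1. Aurka, Cdc25b, Cenpa, Kif20a, Mad2l1 and Mki67 were such genes in Kit+Sca1+ against Kit-Sca1- cells. For Kit+Sca1- against Kit-Sca1- cells they were Anln, Aurkb, Bub1b, Bub3, Ect2, Foxm1, Nek2, Plk1, Top2a and Ube2c. For Kit-Sca1- against MacHigh cells they were Ccnb1, Ccnb2, Cdk1, Cenpa, Incenp, Kif11, Kif20a, Kif2c and Nuf2.

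Unsorted cells set the sorted groups beside the whole spleen preparation. In Kit+Sca1+ cells limma called none of the 41 genes higher and 8 lower (0 and 15 at an unadjusted p under 0.05), where 17.2% of all rows were called higher and 15.7% lower: Cdc25b at -0.92 ± 0.17 (adjusted p 0.000181), Mki67 at -0.77 ± 0.16 (adjusted p 0.000681), Anln, Ccna2, Birc5, Ccnb2, Melk and Ccnb1. The median was -0.28, against -0.01 over all rows. Kit+Sca1- cells had 22 called higher, led by Nuf2 at 0.54 ± 0.13 (adjusted p 0.00196), and Cdc25b called lower at -0.57 ± 0.16 (adjusted p 0.00545), where 23.6% of all rows were called higher and 23.8% lower. Kit-Sca1- cells had none called higher and 2 lower by limma (1 and 3 at an unadjusted p under 0.05), Nusap1 at -0.53 ± 0.15 (adjusted p 0.0198) and Cdc25b at -0.49 ± 0.16 (adjusted p 0.0414), where 5.67% of all rows were called higher and 8.91% lower. MacHigh cells had none called higher and 31 lower by limma (0 and 39 at an unadjusted p under 0.05), led by Mad2l1 at -0.66 ± 0.13 (adjusted p 0.000506), where 21.3% of all rows were called higher and 18.2% lower. The medians were 0.35, -0.01 and -0.42 for Kit+Sca1-, Kit-Sca1- and MacHigh cells. Within shared prefixes the mean difference over the 41 genes was -0.42 to -0.31 in Kit+Sca1+ cells (3 prefixes), 0.03 to 0.55 in Kit+Sca1- cells (4), -0.25 to 0.07 in Kit-Sca1- cells (4) and -0.95 to -0.13 in MacHigh cells (4). Cdc25b was thus called lower in each MacLow group against unsorted cells, in which replicate 4 stood highest at 40.9 FPKM, and these comparisons share the unsorted libraries.

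Unsorted cells also held RNA of red cell precursors. Summed over 15 erythroid genes, the level was 30.7 to 105 FPKM in Kit+Sca1+ libraries, 2.99 to 31.9 in Kit+Sca1-, 4.72 to 29.1 in Kit-Sca1-, 3.86 to 101 in MacHigh and 377 to 2152 in unsorted libraries. The part of these cells in the differences from unsorted cells was not tested. Summed levels of 5 T cell genes were 6.18 to 26.6 FPKM over all groups: Cd3e was under 0.1 FPKM in every library, whereas Cd3d averaged 1.67, 10.9, 12.3, 3.47 and 9.002 FPKM and Lck 5.99, 1.00, 4.96, 0.278 and 2.52 FPKM in Kit+Sca1+, Kit+Sca1-, Kit-Sca1-, MacHigh and unsorted cells, and their part in the results was not tested. Those of 5 B cell genes were 16.3 to 30.4 FPKM, with Cd79b at a mean of 18.8 to 23.96 FPKM. Of 5 megakaryocyte genes the sum was 2.52 to 17.7 FPKM in the MacLow libraries, 14.5 to 44.2 in MacHigh and 22.1 to 98.9 in unsorted libraries. The count for Kit+Sca1+ against unsorted cells was 5 without Kit+Sca1+ replicate 2, 15 with a block by sample-name prefix and 20 with only these libraries in the fit. For MacHigh against unsorted cells it was 16 without MacHigh replicate 2, and for Kit-Sca1- against unsorted cells 1 without any of the unsorted replicates or without Kit-Sca1- replicate 1, 2 or 4. Of all calls 52.3%, 49.7%, 38.9% and 53.9% were higher in Kit+Sca1+, Kit+Sca1-, Kit-Sca1- and MacHigh cells against unsorted cells, and with equal FPKM sums 40.9%, 62.7%, 9.15% and 24.4%. After quantile normalization the share was 64.6% for Kit+Sca1- and 53.2% for Kit-Sca1- cells.

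The other mitotic genes listed for this study, 107 in number and all tested, include condensins, further kinetochore proteins, motors and subunits of the anaphase-promoting complex. Also listed are cell cycle regulators such as Mybl2, Wee1 and Cdc25a, and genes such as H2afz, Tubb5 and Tuba1b. In Kit+Sca1- against MacHigh cells limma called 100 higher and none lower (101 and 0 at an unadjusted p under 0.05), with a median of 0.81, where 32.5% of all rows were called higher, and 96 without MacHigh replicate 2. The leaders were Mybl2 (B-Myb, which works with MuvB), at a mean of 30.7 FPKM in Kit+Sca1- cells against 7.62 FPKM in MacHigh cells (1.89 ± 0.13, adjusted p 3.94e-11), Wee1, the kinase that restrains Cdk1 (1.57 ± 0.12, adjusted p 1.03e-10), and Mlf1ip (CENP-U, 1.36 ± 0.11, adjusted p 2.07e-10). In Kit+Sca1+ against Kit+Sca1- cells 1 was called higher and 88 lower, with a median of -0.61, where 26.8% of all rows were called higher and 28.5% lower. Psrc1, a spindle protein, was the gene called higher (0.53 ± 0.18, adjusted p 0.0136), and Cdc25a, which acts on Cdk2 and Cdk1, was among the leaders of those called lower, at a mean of 32.5 FPKM in Kit+Sca1+ cells against 86.0 FPKM in Kit+Sca1- cells (-1.37 ± 0.17, adjusted p 3.6e-07). In Kit+Sca1- against Kit-Sca1- cells 67 were called higher and 2 lower, where 24% and 26.3% of all rows were, with a median of 0.44, Cdc25a again leading (1.40 ± 0.16, adjusted p 1.71e-07) and Psrc1 and Cenpm lower (-0.96 ± 0.17 and -0.35 ± 0.13, adjusted p 4.85e-05 and 0.0339).

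In Kit-Sca1- against MacHigh cells limma called 64 of the 107 higher and none lower (74 and 0 at an unadjusted p under 0.05), where 24.5% of all rows were called higher, and 54 higher without MacHigh replicate 2, with Mybl2 first (1.40 ± 0.13, adjusted p 4.22e-08). Against Kit-Sca1- cells, Kit+Sca1+ cells had 4 called higher and 24 lower, where 21.8% of all rows were called higher and 23.3% lower, so that the lower calls were about as frequent as in all rows. Their leader was Lin54, the MuvB subunit that reads the CHR element (-0.52 ± 0.10, adjusted p 0.000295). In Kit+Sca1+ against MacHigh cells 31 were called higher and 1 lower, where 23.6% and 22.4% of all rows were, and 23 and 1 without MacHigh replicate 2. The median was 0.20, and the list was led by Mybl2 (0.97 ± 0.14, adjusted p 7.07e-06) and Wee1 (0.72 ± 0.12, adjusted p 6.02e-05). The shares called against unsorted cells can be read from the plot of calls.

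DNA replication genes, 37 of them (such as the Mcm helicase subunits and Pcna), were counted beside the mitotic genes because they peak earlier in the cell cycle. In Kit+Sca1+ against MacHigh cells limma called 36 of the 37 higher and none lower (37 and 0 at an unadjusted p under 0.05), with a median of 0.61, where 23.6% of all rows were called higher and the 41 mitotic genes had a median of 0.16. In Kit+Sca1- and in Kit-Sca1- cells against MacHigh cells all 37 were called higher, with medians of 1.27 and 1.07, where 32.5% and 24.5% of all rows were. Without MacHigh replicate 2 the counts in these comparisons were again 36, 37 and 37. Kit+Sca1- cells had 11 called higher and 1 lower against Kit-Sca1- cells, where 24% and 26.3% of all rows were, with a median of 0.24, where the mitotic genes had 0.37. In Kit+Sca1+ against Kit+Sca1- cells 34 were called lower, with a median of -0.63, and in Kit+Sca1+ against Kit-Sca1- cells 26, with a median of -0.44, where 28.5% and 23.3% of all rows were called lower. The differences between the lists were not tested.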

How the data were processed

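Per the submitters' processing notes, reads were aligned with TopHat2 2.0.4 to mm10 and levels made with Cuffdiff; its version, the annotation and the use of strand are not given in the sources used here. RNA was extracted with RNeasy kits and libraries made by the Illumina RNA-seq protocol, per the labels' protocols. The authors deposited 1 table of FPKM values for 24 libraries and 23361 rows, with 0.001 in place of 0. FPKM holds no counts, so depth and counting error are unknown.

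Here log2(FPKM + 1) of the 11599 rows with at least 1 FPKM in 4 libraries was fitted with limma 3.58.1 (R 4.3.3, trended eBayes, a mean per group, all 24 libraries), and p-values were adjusted over all rows by Benjamini-Hochberg at 0.05. There were 10 comparisons of pairs of groups and 1 F test over the sorted groups. The script was tested on simulated data. Tables and figures were made with Python 3.11.15, pandas 2.3.3 and matplotlib 3.10.9.

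The mitotic genes and the other lists were chosen with earlier results of these data known. All 41 could be named. The values of all 24 libraries are given for the gene of each role with the highest mean. For the 3 called genes with the largest moderated t in each comparison of sorted groups, the libraries of the groups compared are given. The 2 with the smallest are named too, as are up to 3 other mitotic genes. Further genes were named after their values were seen. Libraries in different groups share a sample-name prefix (11, 12, 26, L, N or R), whose meaning the labels do not give. Libraries of the same prefix deviated together (every pair's correlation over 0.1) in 7 of the 10 comparisons, all but Kit+Sca1+ and Kit+Sca1- against MacHigh and Kit+Sca1- against unsorted cells, and those of the same title number in 0 of 10. Alternatives were another pseudocount, other filters, other scalings, only the groups compared, a block by prefix or title number, and each library left out.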

Additional observations from a re-analysis of the deposited data

Results flagged for a closer look

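Among 210 groups of values (41 genes and the mean over them, in 5 groups each), 9 had a highest or lowest library that stood apart from the rest by Dixon's test; chance flags about 1 in 20 groups. Of these, 5 concern Kit+Sca1+ cells, where groups hold 4 libraries. Kit+Sca1+ replicate 1 was high for Ttk (18.6 FPKM, others 13.6 to 14.3), Kif11 (52.1 FPKM, others 39.6 to 41.3), Kif4 (19.8 FPKM, others 15.4 to 16.1) and Ect2 (31.6 FPKM, others 21.2 to 22.2). Kit+Sca1+ replicate 4 was high for Ube2c (135 FPKM, others 88.2 to 92.1). Kit+Sca1- replicate 2 was high for Bub1 (44.1 FPKM, others 33.1 to 35.4). Unsorted replicate 4 was low for Top2a (129.7 FPKM, others 158 to 168) and Kif11 (41.03 FPKM, others 49.5 to 51.8), and high for Cdc25b (40.9 FPKM, others 27.3 to 30.9).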

How the results depend on the processing

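Of the counts of mitotic genes called, 82 of 88 under another setting and 97 of 115 with a library left out were within 1.5 times the count reported, and no called gene changed direction under any of these alternatives in the comparisons of sorted groups (4305 values, 173 of which lost a call and 82 of which gained it). For Kit+Sca1+ against MacHigh cells, quantile normalization called 10 genes and a fit of only the groups compared 2. For Kit+Sca1+ against unsorted cells the fit of only the groups compared called 20, and a replicate block by sample-name prefix 15. For Kit-Sca1- against unsorted cells the count was 1 with no filter on low values and 4 with only the groups compared. With each library left out, the count ran between 2 and 10 for Kit+Sca1+ against MacHigh, with 4 (more of them lower than higher) without MacHigh replicate 2, between 37 and 40 for Kit+Sca1- against MacHigh, 19 and 33 for Kit-Sca1- against MacHigh, 34 and 39 for Kit+Sca1+ against Kit+Sca1-, 7 and 15 for Kit+Sca1+ against Kit-Sca1-, and 17 and 26 for Kit+Sca1- against Kit-Sca1-. Against unsorted cells it ran between 5 and 11 for Kit+Sca1+, 16 and 26 for Kit+Sca1-, 1 and 2 for Kit-Sca1-, and 16 and 38 for MacHigh cells, and for the F test between 39 and 40. The causes were not tested. Genes called under every alternative numbered 1 of 6 (Kit+Sca1+ against MacHigh), 37 of 39 (Kit+Sca1- against MacHigh), 17 of 26 (Kit-Sca1- against MacHigh), 34 of 38 (Kit+Sca1+ against Kit+Sca1-), 7 of 13 (Kit+Sca1+ against Kit-Sca1-) and 16 of 26 (Kit+Sca1- against Kit-Sca1-). Where the prefixes did not pair the libraries, the block ended the call of Top2a (adjusted p 0.073 by limma) and gave one for Aurkb (0.0326) in Kit+Sca1+ against MacHigh cells, and gave one for Kif23 (0.021) in Kit+Sca1- against MacHigh cells. A replicate block by title number moved no count by over 1.5 times. The other lists, and the counts of genes whose groups do not overlap or that are lowest in MacHigh cells, were recounted without MacHigh replicate 2 after the data were seen. Depth is unknown, so what counting error adds to low levels cannot be stated.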
